A study of Mus musculus with 12 samples.

Results

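The sarcoplasmic reticulum is the calcium store of the heart muscle cell. Here 10 genes of its calcium cycle are described in RNA-seq libraries of mouse cells differentiated in culture towards cardiomyocytes. They are Ryr2, Trdn, Asph, Jph2, Casq2, Hrc, Atp2a2, Pln, Sln and Slc8a1, taken by their symbols from a table of 23427 genes, and all 10 had a value in each of the 4 libraries. The cells, labelled CM7/1, were differentiated in vitro to cardiomyocytes and overexpressed either Hey1 or Hey2 when given doxycycline, and are called the Hey1 line and the Hey2 line here. Total RNA of each was sequenced without the drug and after 48 h at 1000 ng/ml. Which promoter drives the added gene, and whether a line is a single clone, is not stated by any source at hand. This gives 4 groups, uninduced and induced Hey1-line cells and uninduced and induced Hey2-line cells, with 1 library in each. No RNA library is of cells given doxycycline without an inducible Hey gene, so the drug and the Hey protein cannot be told apart in either induction, nor the inserted gene from the culture in a comparison of the lines.

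With each heartbeat, calcium enters the cell and opens the ryanodine receptor, which releases far more calcium from the store to drive contraction. The pump SERCA2 then returns calcium to the store, restrained by small inhibitory membrane proteins, and the sodium-calcium exchanger carries the remainder out of the cell. Hey1 and Hey2 are basic helix-loop-helix repressors that act downstream of Notch in the developing heart and bind E-box-type DNA sites.

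The libraries held between 2296145 and 4182141 reads in listed genes. The Hey genes matched the labels of the libraries. Hey1 in the Hey1 line stood at 0.735 and 8.59 RPKM (read number divided by gene model length in kilobases and by the library's read total), 11.7-fold higher (95% interval 6.48 to 23.1). Hey2 had a blank cell in uninduced Hey2-line cells, where the smallest listed read number, inferred as 5, equals 0.343 RPKM. After induction Hey2 stood at 6.59 RPKM, at least 19.2-fold higher if that inferred number holds. All 8 cardiomyocyte markers (such as Myh6 and Tnnt2) were listed in every library, with a summed level of 15108 and 15544 RPKM in the uninduced and induced Hey1 line and of 908 and 937 RPKM in the Hey2 line. The 8 pluripotency markers summed to 35.1 and 26.6 RPKM in the Hey1 line and to 372 and 390 RPKM in the Hey2 line. Cardiomyocyte markers were thus present in both lines, at a far lower level in the Hey2 line, where the pluripotency markers were far higher. Of the other lists, smooth muscle markers summed to 325 and 351 RPKM in the Hey1 line and 155 and 188 RPKM in the Hey2 line, skeletal muscle markers to 48.9 and 45.6 against 17.4 and 26.7 RPKM, and yolk sac endoderm markers to 69.3 and 49.9 against 7.15 and 7.27 RPKM. The yolk sac markers did not all go one way. Sox17 and Amn were blank in both Hey1-line libraries alone, Alb in both Hey2-line libraries alone and Apoa1 in every library. Fibroblast markers stood at 43.3 and 37.4 RPKM against 63.1 and 80.9 RPKM, neuronal markers at 18.9 and 19.8 against 41.9 and 44.6 RPKM, and endothelial markers at 2.69 and 2.67 against 7.31 and 7.66 RPKM. These are bulk libraries, so fewer cardiomyocytes and less of an RNA in each cardiomyocyte cannot be told apart. Without replicates no difference has a test, and each interval is a 95% interval of counting error only, which leaves out the variation between cultures.

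Levels of the 10 genes are per kilobase and can be set against each other within a library. Atp2a2 (Entrez 11938), which encodes the pump SERCA2, was by far the highest, at 667 RPKM in uninduced and 617 RPKM in induced Hey1-line cells and at 98.8 and 105 RPKM in uninduced and induced Hey2-line cells. Its share of the summed RPKM of the 10 genes was 60.9% and 61.0% for the Hey1 line and 61.7% and 59.9% for the Hey2 line. In uninduced Hey1-line cells it ranked 18 among 12311 listed genes. Pln (Entrez 18821), the pump's inhibitor phospholamban, came next in every library.

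**Figure D1:**
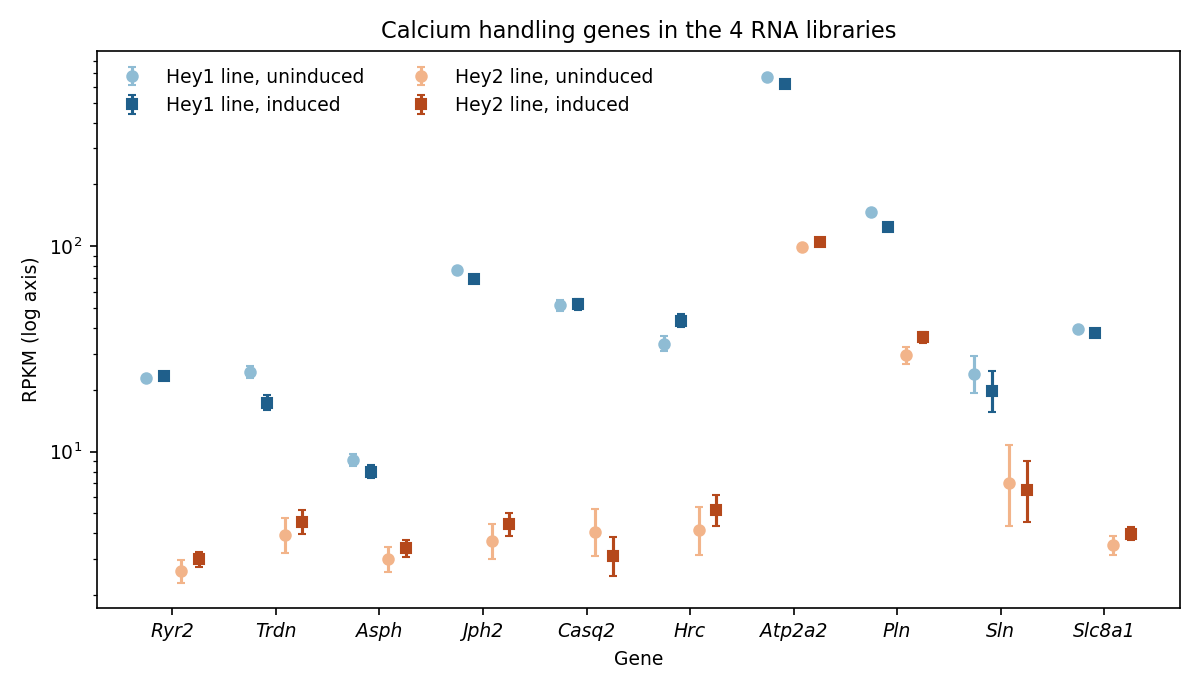
RPKM of the 10 calcium handling genes (log axis) in each of the 4 libraries, with 95% Poisson intervals of the reads as bars. Atp2a2 and Pln are highest in all 4 libraries, and both Hey2-line libraries lie below both Hey1-line libraries for every gene.

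Below these 2 genes the order in uninduced Hey1-line cells was Jph2, Casq2, Slc8a1, Hrc, Trdn, Sln, Ryr2 and Asph, from 76.5 down to 9.08 RPKM. Trdn, Sln and Ryr2, at 24.4, 23.9 and 22.9 RPKM, were neighbours that did not differ beyond counting error, and all other neighbours did. In uninduced Hey2-line cells the 8 genes below Pln lay between 7.02 RPKM (Sln) and 2.62 RPKM (Ryr2), and no neighbours among them differed beyond counting error. With induction, Slc8a1 and Asph there, at 3.99 and 3.39 RPKM, were the neighbours that differed (1.17-fold, 1.04 to 1.32). In induced Hey1-line cells Hrc stood above Slc8a1, and Ryr2, Sln and Trdn followed in that order, again with neighbours among these 3 that did not differ beyond counting error. Jph2 thus ranked 3 among the 10 genes in uninduced Hey1-line cells and 7 in uninduced Hey2-line cells. The median of the 10 genes was 36.5 RPKM in uninduced Hey1-line cells, above the 5.42 RPKM of all compared genes. In uninduced Hey2-line cells it was 4.01 RPKM, below the 6.40 RPKM of all compared genes.

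The stretch of DNA just before the transcription start is shown for 3 genes, with E boxes marked because Hey proteins bind such sites. The genes were chosen for unlike differences between the lines. Jph2 had the largest uninduced difference and Pln a smaller one, beside the release channel gene Ryr2. Whether the marked letters bear on these differences was not tested. Each stretch is 250 bases ending just before the start, from RefSeq on GRCm38.p6, read 5′ to 3′ on the gene's strand. Capitals mark CANNTG (the general E box) and CACGCG, searched on both strands.
Ryr2 promoter, chr13:12106946-12107195, minus strand: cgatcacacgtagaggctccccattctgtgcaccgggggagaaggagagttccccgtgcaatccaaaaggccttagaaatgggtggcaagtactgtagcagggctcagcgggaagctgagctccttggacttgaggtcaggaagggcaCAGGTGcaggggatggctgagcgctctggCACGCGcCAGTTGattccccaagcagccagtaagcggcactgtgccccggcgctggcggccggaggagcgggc
Jph2 promoter, chr2:163397994-163398243, minus strand: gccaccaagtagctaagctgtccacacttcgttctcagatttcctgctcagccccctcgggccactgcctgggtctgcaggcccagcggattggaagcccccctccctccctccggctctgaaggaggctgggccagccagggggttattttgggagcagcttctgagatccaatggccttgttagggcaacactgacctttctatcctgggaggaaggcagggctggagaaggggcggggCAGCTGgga
Pln promoter, chr10:53337436-53337685, plus strand: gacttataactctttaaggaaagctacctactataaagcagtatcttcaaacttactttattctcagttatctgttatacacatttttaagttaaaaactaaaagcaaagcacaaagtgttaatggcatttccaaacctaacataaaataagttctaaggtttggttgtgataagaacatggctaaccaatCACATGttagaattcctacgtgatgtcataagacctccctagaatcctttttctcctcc
RefSeq windows were at hand for 6 of the 10 genes, and each of the 6 held at least 1 CANNTG, as did 66.2% of all 32851 windows of this length. The narrower E box CACGTG, which is one form of CANNTG, was in none of the 6 and in 6.02% of all windows. CACGCG was found in the Ryr2 window alone, with its first base at −73 from the start, and in 7.62% of all windows. The GATA-type sequence AGATAA was present for Pln and Slc8a1 and in 9.99% of all windows. A match of letters is not a binding site, and binding was not analysed here.

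The largest differences for this group lay between the lines. Compared with the Hey1 line, all 10 genes were lower in the Hey2 line by 2-fold or more as log2(RPKM + 1), both between the uninduced libraries and between the induced ones. The 1 RPKM added there dampens the differences of low genes. Among all 10991 compared genes (a value in each library and a mean of at least 1 RPKM), 13.1% were lower by that size in the uninduced pair and 12.3% in the induced pair, and 19.7% and 22.8% were higher. The median difference of the 10 genes on this scale was −2.73 without induction and −2.58 with it, beside 0.20 and 0.27 for all compared genes. The 2 pairs share no library but set the same 2 lines against each other, so a difference between the lines or their cultures can enter both.

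Jph2 (Entrez 59091) encodes junctophilin-2, which ties the reticulum to the cell membrane where release takes place. It stood at 76.5 and 69.1 RPKM in uninduced and induced Hey1-line cells and at 3.67 and 4.43 RPKM in those of the Hey2 line. Without induction it was 20.9-fold lower in the Hey2 line (17.2 to 25.6), and only 0.227% of compared genes had a lower ratio. With induction it was 15.6-fold lower (13.6 to 17.9). The difference was the largest of the 10 genes in the uninduced pair.

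Casq2 (Entrez 12373) encodes cardiac calsequestrin, the protein that stores calcium inside the reticulum. Its levels were 51.7 and 52.3 RPKM in the Hey1 line and 4.08 and 3.11 RPKM in the Hey2 line, uninduced first. It was 12.7-fold lower without induction (9.73 to 16.8) and 16.8-fold lower with it (13.4 to 21.4). In the induced pair its interval overlapped that of Jph2, and these 2 genes had the largest differences of the 10.

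Ryr2 (Entrez 20191), the release channel itself, stood at 22.9 and 23.4 RPKM in uninduced and induced Hey1-line cells and at 2.62 and 2.99 RPKM in Hey2-line cells. The ratio between the lines was 8.73-fold without induction (7.68 to 9.97) and 7.82-fold with it (7.12 to 8.60), lower in the Hey2 line. Within each line the induced and uninduced libraries were close, while the lines did not overlap.

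Trdn (Entrez 76757) encodes triadin, which links the channel to calsequestrin. It was listed at 24.4 and 17.3 RPKM in uninduced and induced Hey1-line cells and at 3.93 and 4.55 RPKM in the Hey2 line. It was 6.21-fold lower in the Hey2 line without induction (5.05 to 7.70) and 3.81-fold lower with it (3.25 to 4.48). These intervals do not meet, so for triadin the gap between the lines was narrower in the induced pair by more than counting error. The same held for Atp2a2 and Pln.

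Asph (Entrez 65973) yields junctin, a further anchor of the release complex, and from the same gene an aspartate hydroxylase of many cell types, and the values do not separate these forms. At 9.08 and 7.98 RPKM in the Hey1 line and 2.98 and 3.39 RPKM in the Hey2 line, it had the smallest difference of the 10. It was 3.04-fold lower in the Hey2 line without induction (2.61 to 3.56) and 2.35-fold lower with it (2.09 to 2.65). Hrc (Entrez 15464), a histidine-rich calcium-binding protein of the reticulum that binds triadin and the pump, stood at 33.6 and 43.5 RPKM in the Hey1 line and at 4.15 and 5.20 RPKM in the Hey2 line. It was 8.09-fold lower in the Hey2 line (6.17 to 10.8) and, with induction, 8.37-fold lower (6.95 to 10.2).

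Among the uptake genes, Atp2a2 was 6.76-fold lower in the uninduced Hey2 line (6.54 to 6.99) and 5.89-fold lower in the induced one (5.74 to 6.04). The table does not separate the cardiac splice form of this pump from the form found in most cells. Pln stood at 147 and 124 RPKM in uninduced and induced Hey1-line cells and at 29.5 and 36.0 RPKM in Hey2-line cells. It was 4.98-fold lower without induction (4.49 to 5.53) and 3.44-fold lower with it (3.18 to 3.71), a smaller gap than that of the pump in both pairs. Sln (Entrez 66402), which encodes sarcolipin, the pump inhibitor known from atria and skeletal muscle, was measured with few reads, between 21 and 92 per library. At 23.9 and 19.7 RPKM in the Hey1 line and 7.02 and 6.49 RPKM in the Hey2 line it was 3.40-fold lower without induction (2.10 to 5.76) and 3.04-fold lower with it (2.02 to 4.68).

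Slc8a1 (Entrez 20541), the sodium-calcium exchanger of the cell membrane, was at 39.5 and 38.0 RPKM in the Hey1 line and at 3.50 and 3.99 RPKM in the Hey2 line. It was 11.3-fold lower in the Hey2 line without induction (10.2 to 12.6) and 9.52-fold lower with it (8.83 to 10.3). Ordered by size, the uninduced differences ran from Jph2, Casq2 and Slc8a1 over Ryr2, Hrc, Atp2a2 and Trdn to Pln, Sln and Asph.

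Sarcomere genes were lower in the Hey2 line in the same libraries. All 22 genes of a sarcomere list were lower by at least 2-fold in both pairs, with a median ratio of 13.5-fold in the uninduced pair (2.08-fold to 35.9-fold) and 14.0-fold in the induced pair (2.62-fold to 34.8-fold). Jph2 lay beyond that median in both pairs and Casq2 in the induced one. In the induced pair the median lay within both intervals, 13.6 to 17.9 for Jph2 and 13.4 to 21.4 for Casq2. It also lay within that of Casq2 in the uninduced pair (9.73 to 16.8). The other calcium handling genes were less far apart than the median sarcomere gene. Asph, Pln and Sln had a smaller difference than at least 21 of the 22 sarcomere genes in each pair. How far the level of cardiomyocyte markers accounts for the differences of the calcium genes was not tested.

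**Figure D2:**
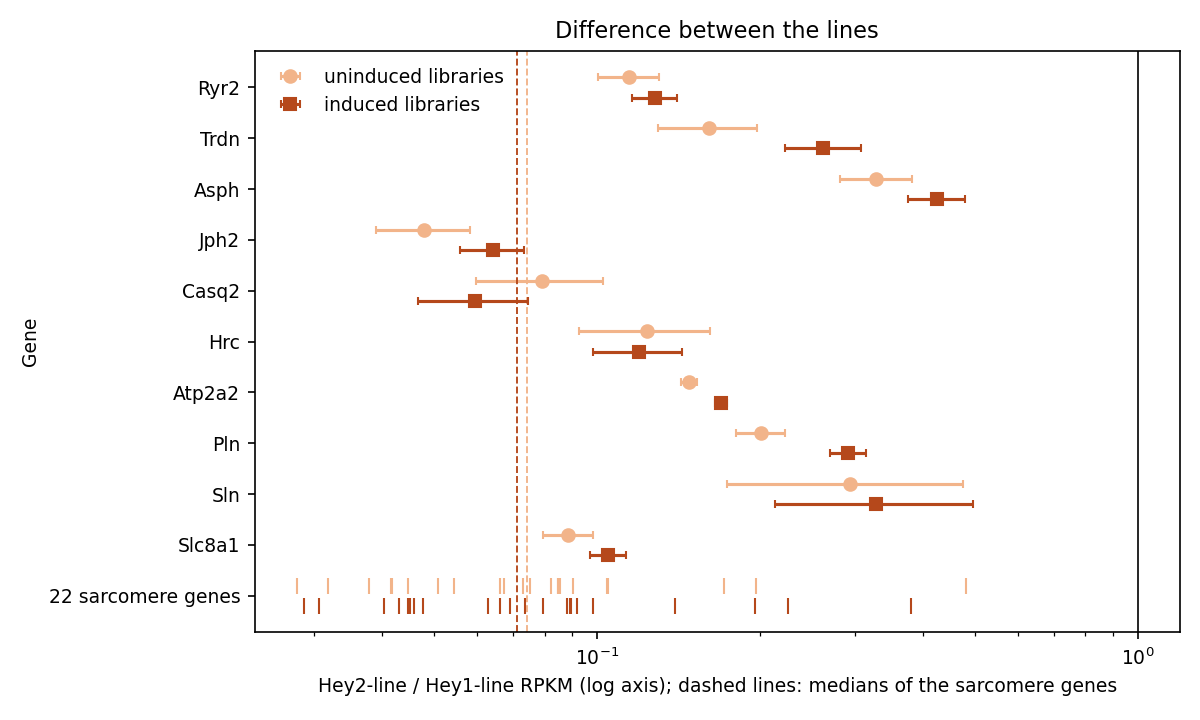
Ratio of Hey2-line to Hey1-line RPKM (log axis) for each gene, uninduced and induced, with exact 95% intervals of counting error. Ticks in the bottom row are 22 sarcomere genes and dashed lines their medians. All 10 genes lie below 1 in both pairs, Jph2 and Casq2 lowest and Asph and Sln farthest above the sarcomere medians.

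Ratios of partner genes within a library do not depend on how libraries are scaled to each other. Jph2 stood at 3.35 times Ryr2 in uninduced Hey1-line cells (3.18 to 3.53) and at 2.96 times in induced ones (2.81 to 3.12). In the Hey2 line this ratio was 1.40 (1.10 to 1.77) and 1.48 (1.26 to 1.74), so the junctional tether was lower against its channel by 2.39-fold (1.89 to 3.02) without induction and by 1.99-fold (1.69 to 2.35) with it. Casq2 to Ryr2 was 2.26 (2.10 to 2.43) and 2.24 (2.08 to 2.41) for the Hey1 line, against 1.56 (1.15 to 2.08) and 1.04 (0.812 to 1.32) in the Hey2 line. Both store and tether were therefore lower relative to the channel in both Hey2-line libraries. Trdn to Ryr2 went the other way, at 1.07 (0.987 to 1.15) and 0.742 (0.678 to 0.811) in the Hey1 line against 1.50 (1.18 to 1.90) and 1.52 (1.29 to 1.79) in the Hey2 line.

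For the pump, Pln was at 0.220 of the level of Atp2a2 in uninduced Hey1-line cells (0.211 to 0.228) and at 0.201 in induced ones (0.192 to 0.209). In the Hey2 line it was at 0.298 (0.269 to 0.330) and 0.343 (0.320 to 0.368). Relative to the pump, its inhibitor was thus higher in the Hey2 line, by 1.36-fold (1.22 to 1.51) without induction and by 1.71-fold (1.58 to 1.86) with it. The ratio of Sln to Atp2a2 was also higher in the Hey2 line, at 0.0711 (0.0440 to 0.109) and 0.0619 (0.0431 to 0.0862) against 0.0358 (0.0289 to 0.0439) and 0.0320 (0.0252 to 0.0400). By contrast Slc8a1 to Atp2a2 was lower there, at 0.0354 and 0.0380 against 0.0592 and 0.0615, a change of 1.67-fold (1.50 to 1.87) and 1.62-fold (1.49 to 1.75). The values are of RNA, and Atp2a2 is expressed by most cell types, so these ratios are not those of the proteins.

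**Figure D3:**
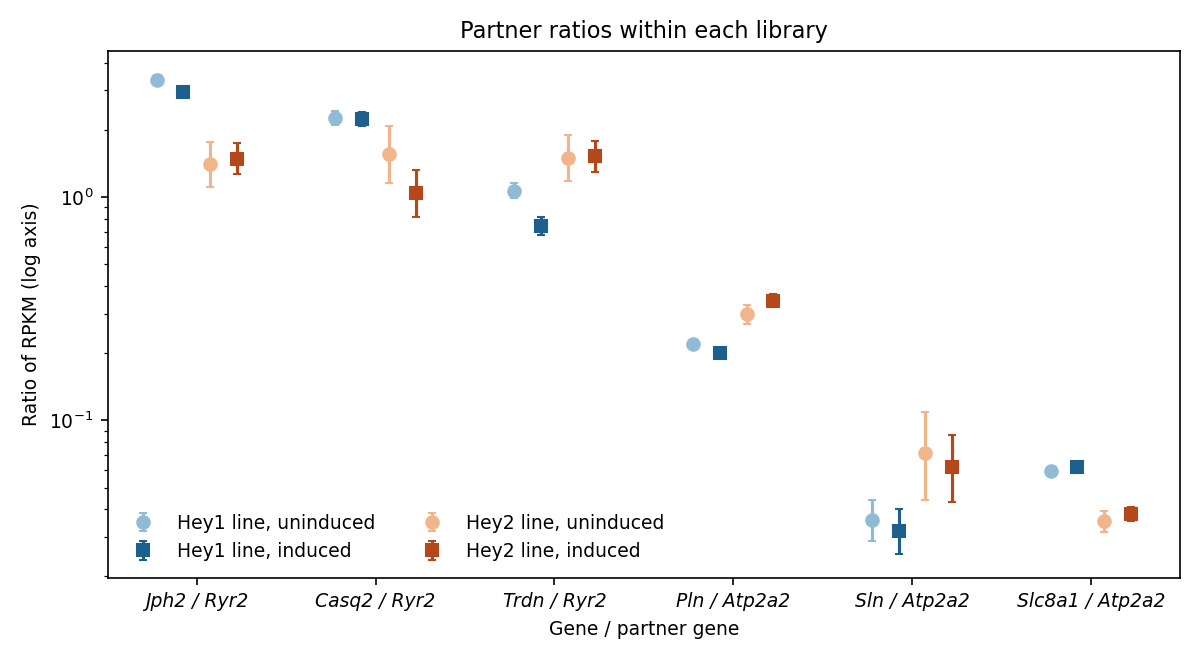
RPKM of a gene divided by that of its partner (log axis) in each library, with exact 95% intervals of counting error. The Jph2 to Ryr2 ratio is 3.35 and 2.96 for the Hey1 line, against 1.40 and 1.48 for the Hey2 line, and Pln to Atp2a2 is higher in both Hey2-line libraries.

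Next, the induced Hey1-line library was set against its uninduced control. The differences were small, and none of the 10 genes differed by 2-fold on the log2(RPKM + 1) scale, where 0.0273% of compared genes were higher and 0.109% lower by that size. By a difference of at least 0.32 on this scale, 1 gene was higher (Hrc) and 1 lower (Trdn), beside 3.28% and 12.6% of all compared genes. The median difference of the 10 genes was −0.13, with −0.06 for all compared genes and 0.04 for the sarcomere list.

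Trdn went from 24.4 to 17.3 RPKM with Hey1 induction, 1.41-fold lower (1.26 to 1.57), from 815 and 587 reads. Of the compared genes, 9.40% had a lower ratio. Ryr2, its binding partner, stood at 22.9 and 23.4 RPKM, a ratio of 1.02 within counting error (0.970 to 1.08). The ratio of Trdn to Ryr2 was therefore 1.44-fold lower in the induced library (1.28 to 1.62). Hrc moved the other way, from 33.6 to 43.5 RPKM, 1.30-fold higher (1.16 to 1.44).

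In the uptake group, Pln was 1.18-fold lower with Hey1 induction (1.12 to 1.253), at 147 and 124 RPKM. Atp2a2 was 1.08-fold lower (1.07 to 1.10), and Sln, at 23.9 and 19.7 RPKM, was within counting error (1.21-fold lower, 0.885 to 1.66). Of the remaining genes, Asph was 1.14-fold lower (1.03 to 1.26), Jph2 1.11-fold lower (1.05 to 1.17) and Slc8a1 1.04-fold lower (1.002 to 1.08). Casq2 stayed within counting error, at a ratio of 1.01 (0.925 to 1.11). In all, 6 genes were lower and 1 was higher beyond counting error, beside 13.5% and 4.88% of all genes with recovered reads. Well-read genes such as these have narrow intervals and pass more easily. After scaling the libraries by their median ratio, which takes out the median log2 ratio of −0.08 over all compared genes, 3 were lower (Trdn, Atp2a2 and Pln) and 2 higher (Hrc and Ryr2), beside 8.30% and 9.09% of all genes. Slc8a1 then stood at 1.01 (0.975 to 1.05).

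Hey2 induction was examined in the same way. None of the 10 genes differed by 2-fold on the log2(RPKM + 1) scale, beside 0.0091% of compared genes higher and 0.0364% lower, nor by 0.32 on that scale. At the smaller size 5.62% of compared genes were higher and 5.9% lower. Of the 10 genes 8 were higher and 2 lower in the induced library, where 50.6% of all compared genes were lower, with a median difference of 0.14 beside −0.0024 for all compared genes and 0.05 for the sarcomere list.

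Pln was higher after Hey2 induction, at 29.5 and 36.0 RPKM, 1.22-fold (1.09 to 1.37). Atp2a2, at 98.8 and 105 RPKM, was 1.06-fold higher (1.02 to 1.10), with Slc8a1 at 3.50 and 3.99 RPKM, 1.14-fold higher (1.01 to 1.29). These 3 genes were the ones higher beyond counting error, where 8.04% of all genes with recovered reads were, and 0 of the 10 were lower beyond it, beside 6.63%. Ryr2, Trdn, Asph, Jph2 and Hrc had ratios from 1.14 to 1.252 whose intervals included 1. Casq2 had the lowest ratio, 1.31-fold lower (0.923 to 1.86) from only 59 and 81 reads, and Sln lay at 1.08-fold lower (0.599 to 1.91). Longer gene models had higher ratios in this comparison, with a Spearman's rho of 0.223 across 10987 genes, which share the same libraries and are not independent (0.0280 in the Hey1 line). The recovered lengths of Ryr2, Slc8a1 and Asph were 16813, 18599 and 12295 bases, and the part of length in their ratios was not tested.

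**Figure D4:**
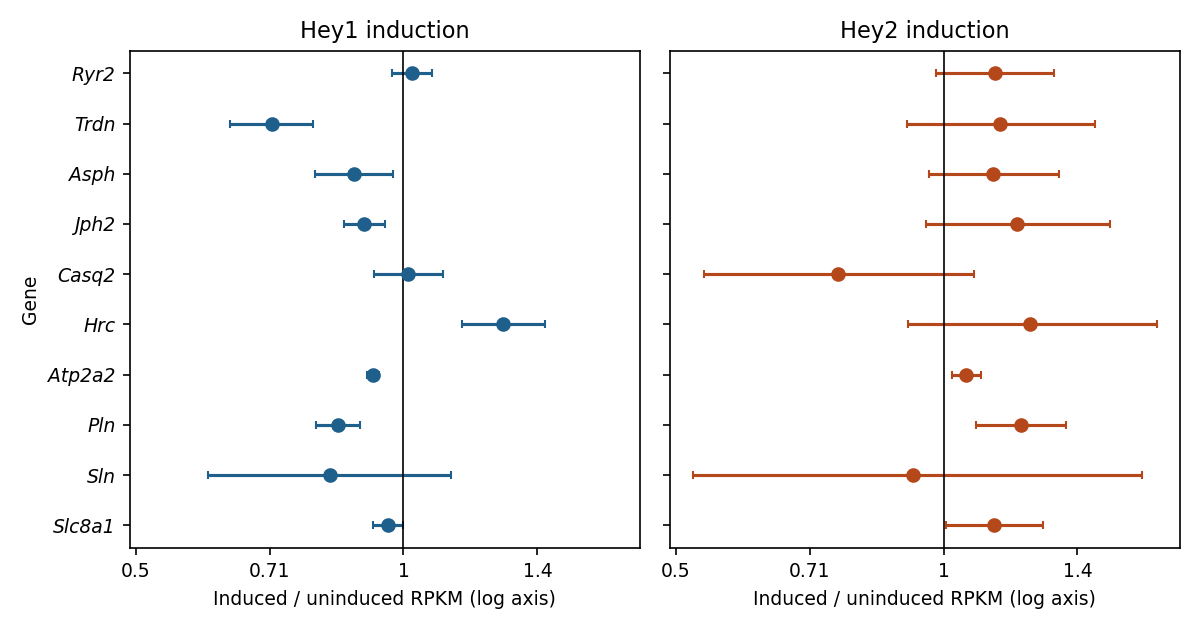
Ratio of induced to uninduced RPKM (log axis) in the Hey1 line (left) and the Hey2 line (right), with exact 95% intervals of counting error. Trdn lies lowest and Hrc highest in the Hey1 line, while in the Hey2 line 8 of 10 ratios lie above 1 with wider intervals.

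Set against each other, the 2 inductions differed beyond counting error for 6 of the 10 genes, each with a higher ratio in the Hey2 line, as did 12.7% of genes with recovered reads. In the opposite direction there were 0 of the 10, beside 4.16%. Of all compared genes, 60.8% had a higher ratio in the Hey2 line, beyond counting error or not, with a median log2 difference of 0.09. The ratio in the Hey2 line was higher than that in the Hey1 line by 1.63-fold for Trdn (1.26 to 2.11), by 1.45-fold for Pln (1.27 to 1.65) and by 1.34-fold for Jph2 (1.06 to 1.70). For Asph it was 1.29-fold (1.07 to 1.57), for Slc8a1 1.19-fold (1.04 to 1.35) and for Atp2a2 1.15-fold (1.10 to 1.20). Hrc was higher in both induced libraries, within counting error in the Hey2 line, and the ratio between its inductions was 0.966 (0.697 to 1.34). For Slc8a1 the interval reached no difference under both other scalings of the libraries. With 1 culture in each group, whether these differences would recur in other cultures was not tested.

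Of 55 other genes of calcium handling, 44 were compared. In the Hey1 induction 18 were higher and 26 lower, where 61.6% of all compared genes were lower, and 0 reached a log2(RPKM + 1) difference of 0.32 in either direction. The most different were Ccdc47 (1.26-fold lower, 1.10 to 1.44), Camk2b (1.33-fold lower, 0.984 to 1.79), the potassium channel gene of the reticulum Tmem38a (1.20-fold lower, 1.05 to 1.38) and Srl, which encodes the reticulum protein sarcalumenin (1.20-fold lower, 1.13 to 1.27). In the Hey2 induction 25 were higher and 19 lower, where 50.6% of all compared genes were lower. Of these, 4 were higher and 1 lower by 0.32 or more, beside 5.62% and 5.9% of all compared genes. Tmem38b was 1.72-fold higher (1.13 to 2.66) and the plasma membrane calcium pump gene Atp2b4 1.49-fold higher (1.18 to 1.88). Fkbp1b, whose product binds and steadies the release channel, was at 1.60 and 2.75 RPKM, within counting error (0.791 to 4.15), and Atp2a3 was 1.53-fold lower (1.03 to 2.27).

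Between the lines the wider list was divided. Without induction 11 of the 44 were lower and 6 higher by at least 2-fold in the Hey2 line, beside 13.1% and 19.7% of all compared genes. The median difference was 0.02, beside 0.20 for all compared genes. With induction the counts were 12 and 7, beside 12.3% and 22.8%, and the median was 0.14, beside 0.27. The lower ones were led by Casq1, the calsequestrin known from fast skeletal muscle, which stood at 23.5 and 22.9 RPKM in the Hey1 line and at 1.39 and 0.977 RPKM in the Hey2 line. It was 16.9-fold lower without induction (10.1 to 30.5) and 23.4-fold lower with it (14.8 to 39.5). Tmem38a was 8.06-fold (5.95 to 11.2) and 6.95-fold lower (5.46 to 8.95), and Srl 6.36-fold (5.66 to 7.17) and 5.34-fold lower (4.86 to 5.86). Camk2a was 7.51-fold lower in the uninduced pair (5.73 to 9.99), and S100a1, a calcium sensor that acts on the pump and the release channel, 5.12-fold lower in the induced pair (4.02 to 6.57).

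Paralogs of the channel, pump, exchanger and store genes were lower than the cardiac members or blank in each of the 4 libraries. Ryr3 was at 0.693 and 0.562 RPKM in the Hey1 line and at 2.08 and 1.63 RPKM in the Hey2 line, beside 2.62 and 2.99 RPKM of Ryr2. Ryr1, the skeletal muscle channel, was blank in both Hey1-line libraries and at 0.385 and 0.301 RPKM in the Hey2 line. Atp2a1, the skeletal muscle pump, reached at most 1.12 RPKM and Atp2a3 at most 3.68 RPKM, both in induced Hey1-line cells. Of the exchangers, Slc8a2 was at 3.35 and 2.80 RPKM in the Hey1 line. In the Hey2 line it was at 1.31 and 1.07 RPKM, beside 3.50 and 3.99 RPKM of Slc8a1. Slc8a3 was listed in the induced Hey2-line library alone, at 0.152 RPKM. Casq1 had the highest level of these paralogs in uninduced Hey1-line cells, at 23.5 RPKM beside 51.7 RPKM of Casq2, while the skeletal muscle regulators Myod1, Myog and Myf5 were blank in all 4 libraries.

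Among 6512 genes with 4 values and a mean of at least 5 RPKM, a few followed the same course over the 4 libraries, measured as the root mean square distance between log2(RPKM + 1) values centred on each gene's mean. Nearest to Ryr2 were Ak1 (0.0280) and Fads3 (0.0291). For Atp2a2 these were D330017J20Rik (0.0465), Sh3bgr (0.0476) and Gpc1 (0.0513), and for Slc8a1 H19 (0.0396), Filip1 (0.0439) and Igfbp5 (0.0457). The distances rest on 4 libraries and mainly on the difference between the lines.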

How the data were processed

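RNA was measured in 4 libraries, and the series' 8 chromatin samples were not analysed here. The authors deposited RPKM values per gene with blank cells and no zeros, and a signed fold per line, a score of theirs that was not used. The build mm9 and the tools Bowtie 1.0, DESeq and MACS 1.4.1 are named, with no step given, per the submitters' processing notes. No source at hand states the annotation, the read counter, the use of strand or what was done with multiply matching reads. The 10 genes and the lists were chosen with earlier results of these data known.

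Whole reads were recovered from the steps of the RPKM at a whole-base gene length of at most 25000 bases, for 15363 of 15371 genes with a value (allowed deviation 3e-06 reads plus 1e-09 of the read number). The recovered read totals behind the RPKM were 7400000 and 7500000 for the Hey1 line, uninduced first, and 5750000 and 10375000 for the Hey2 line. On data simulated from the recovered lengths and reads, the exact reads returned for 96.6% of 1993 genes. The read totals and a smallest read number of 5 in every library were given in that simulation. It does not check them, nor the 10 used for the Hey1 line. The smallest listed read number was inferred as 10 (Hey1 line) and 5 (Hey2 line), where the number of genes per read number rose most. For 634 genes the length was raised to a multiple so that their reads reached it. A blank was read as fewer reads than this, not as 0. The true read number may be a multiple of the smallest one that fits, and intervals are then too wide. PCR copies are not independent, so intervals cover counting error only.

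Folds are ratios of RPKM with exact conditional binomial intervals. Intervals of a change in a partner ratio, or between inductions, use Poisson variances on the log scale. Differences are of log2(RPKM + 1), a pseudocount of 1 RPKM. Compared genes had 4 values and a mean of at least 1 RPKM, without 13 rows that repeat another row's values. The text names all 10 genes, the 4 most different of the wider list per comparison, paralogs and the 3 nearest patterns to Ryr2, Atp2a2 and Slc8a1, of which 1 is not reported here. Alternatives were the pseudocount, the scaling and the filter on low values. Python 3.11.15, NumPy 2.4.6, pandas 2.3.3, SciPy 1.17.1 and Matplotlib 3.10.9 were used.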

Additional observations from a re-analysis of the deposited data

Results flagged for a closer look

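Atp2a2, Pln and Slc8a1 were lower with Hey1 induction and higher with Hey2 induction, each beyond counting error. Taken singly, 13.5% of genes with recovered reads were lower beyond it with Hey1 induction and 8.04% higher with Hey2 induction. The share that was both was not computed. With Hey1 induction 44.3% of compared genes had a lower ratio than Atp2a2, 27.4% than Pln and 53.0% than Slc8a1. The log2 ratio was higher in the Hey2 line by 0.20 for Atp2a2 (0.14 to 0.26), by 0.53 for Pln (0.35 to 0.72) and by 0.25 for Slc8a1 (0.06 to 0.43). Over all compared genes the median of this difference was 0.09, and 60.8% had a positive value. A lower difference than that of Atp2a2 was found for 62.4% of compared genes, than that of Pln for 88.2% and than that of Slc8a1 for 67.3%. Each line had 1 library per condition, so this difference was not tested across cultures. After median ratio scaling the direction in the Hey1 line was as before for Atp2a2 and Pln, and Slc8a1 stood at 1.01 within counting error (0.975 to 1.05).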

How the results depend on the processing

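Each comparison was recomputed under 7 alternatives. Of 280 values of the 10 genes, 232 moved by less than counting error or not at all, 46 by more and 2 changed sign. Of 122 counts and medians, 106 held within their limits. Alternatives that only change which genes are kept could not move the values, counts or medians of the 10 genes. Those results are among the ones that held. Slc8a1 with Hey1 induction turned to 0.0172 after median ratio scaling and to 0.00718 after upper quartile scaling (log2). The genes higher beyond counting error in that comparison became 2 with both scalings. Those lower became 3 with median ratio scaling and 4 with upper quartile scaling. Of all genes with recovered reads, 9.09% were then higher and 8.30% lower with median ratio scaling, and 8.30% and 8.98% with upper quartile scaling. With a pseudocount of 0.1 RPKM, 1 of the 10 genes was lower by at least 0.32 (log2) with Hey2 induction, beside 9.05% of all compared genes. The median difference of the 10 genes between the lines became −2.11 (uninduced) and −2.04 (induced) with a pseudocount of 5 RPKM. Of the 10 genes, 9 then stayed lower by 2-fold in each pair, beside 7.03% (uninduced) and 6.91% (induced) of all compared genes. In the induced pair the median was −2.88 and −2.79 with median ratio and upper quartile scaling, which take out shifts of 0.33 and 0.23. For the wider list, a mean of at least 5 RPKM left 0 genes higher and 0 lower by 0.32 with Hey2 induction. The wider list's genes higher by 2-fold in the Hey2 line became 3 uninduced and 4 induced, both with that filter and with median ratio scaling, and its induced median became −0.25 and −0.10. The filter tests fewer genes, and for the scalings the cause was not tested. No paired analysis was possible because each group has 1 library and the labels give no replicate numbers. Depth limits Sln, Casq2 and Hrc most, with 21 to 131 reads each in the Hey2-line libraries.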
